A study of Mus musculus with 14 samples.

Results

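The AP-1 Fos and Jun family is described here by 6 genes, Fos, Fosb, Fosl2, Jun, Junb and Jund, taken by symbol from the 36118 genes of a hippocampal RNA-seq count table. All 6 were found and all 6 passed the filter on low counts that 16637 genes passed. The family was chosen on measured values: it was picked with the hyperoxia differences of Fos and Fosb in these libraries already known. Its differences between room air and hyperoxia are therefore given as a description, and calls of its members in them are not read as tests. The difference between genotypes, averaged over both exposures, was tested. It is independent of the hyperoxia differences only where mice spread equally in both exposures. Earlier results of these data were also known when the family was chosen.

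The libraries came from newborn mice of the C57/BL6 background (C57BL/6N in the study's methods), either homozygous for a global gasdermin D (GSDMD) knockout or wild-type littermates, randomized soon after birth to room air or to 85% oxygen. The knockout allele is a small CRISPR/Cas9 deletion inside an exon of Gsdmd, so every cell type carries it. Exposure ran from postnatal day 1 to day 14 and the hippocampus was collected on day 15. The groups are WT mice in room air (WT-RA, n = 4), WT mice in hyperoxia (WT-O2, n = 4), KO mice in room air (KO-RA, n = 3) and KO mice in hyperoxia (KO-O2, n = 3), 14 libraries in all, each from 1 mouse. The study asked how hyperoxia changes hippocampal transcription and how loss of GSDMD alters that response.

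AP-1 is a transcription factor made of a pair of basic leucine zipper proteins. Jun proteins (Jun, Junb, Jund) can pair with each other or with a Fos protein, whereas Fos proteins (Fos, Fosb, Fosl1, Fosl2) need a Jun partner to bind DNA. Fos, Fosb and Junb are classical immediate early genes: their transcription starts within minutes of synaptic activity or growth factor signaling, through serum response factor and CREB at their promoters, and their mRNAs are short lived. Jund is expressed widely at a steady level, and Fosl2 is a later-acting Fos family member found in neurons and glia. In the hippocampus, Fos mRNA is widely used as a record of recent neuronal activity, and handling, stress and arousal before tissue collection also induce it.

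The promoters of the 3 immediate early members are shown with that of Jun because they carry matches to CREB and AP-1 type elements. The 150 bases before each RefSeq start (GRCm38.p6) are printed 5′ to 3′ on the gene's strand. Capitals mark TGACG, the core of a cAMP response element, in Fos, Fosb and Junb, and the 8 letters of a TGACNTCA match in Jun, an element through which Jun and ATF proteins can act on the gene's own promoter.
Fos, chr12:85473740-85473889 (+): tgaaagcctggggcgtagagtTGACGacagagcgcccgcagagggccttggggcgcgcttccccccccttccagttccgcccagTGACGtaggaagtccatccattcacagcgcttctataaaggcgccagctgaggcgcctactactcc
Fosb, chr7:19310046-19310195 (-): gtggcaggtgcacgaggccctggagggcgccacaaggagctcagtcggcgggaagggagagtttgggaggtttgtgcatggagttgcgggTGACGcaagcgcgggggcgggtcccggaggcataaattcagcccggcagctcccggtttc
Junb, chr8:84978749-84978898 (-): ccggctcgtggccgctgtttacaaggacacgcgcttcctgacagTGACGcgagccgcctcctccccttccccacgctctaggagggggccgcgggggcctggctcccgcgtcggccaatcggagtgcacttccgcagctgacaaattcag
Jun, chr4:95052223-95052372 (-): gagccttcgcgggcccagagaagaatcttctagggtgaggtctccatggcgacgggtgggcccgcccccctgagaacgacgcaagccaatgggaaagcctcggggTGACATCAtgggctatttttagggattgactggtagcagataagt

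In the 250 bases before the start, on either strand, Fos had 2 TGACG matches, at 129 to 125 and 66 to 62 bases before the start. Fosb had 1, at 60 to 56 bases, and Junb had 1, at 106 to 102 bases. Fosl2, Jun and Jund had none in this window, and 17.8% of 32851 RefSeq promoters of the same length held at least 1. TGACNTCA, which differs from the TGACG search in leaving its middle base open and can overlap it, was matched in the family by Jun alone, 45 to 38 bases before the start, and in 7.49% of all promoters. TATAAA was matched by Fos alone, 33 to 28 bases before the start (12.4% of all promoters). None of the 6 windows held TGACTCA, the AP-1 site itself (4.46% of all promoters), or a CArG box (1.47%), which serum response factor binds. Bases further upstream than 250 were not searched, so sites there would not be seen. For Fosl2 and Jund the RefSeq start lies 671 and 1210 bases from the GENCODE start of the gene, so a different window would be read there from the other annotation. These matches describe letters in a window and were not measured as binding.

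The libraries were of even depth, with 27272270 to 28257496 estimated counts each. Gsdmd itself, which checks the genotype, had 41 to 63 estimated counts in the 8 WT libraries and 22 to 42 in the 6 KO libraries. Sums over whole transcripts do not show the deletion, and 1 KO-RA library (42) exceeded 1 WT-RA library (41). The fourth WT-O2 mouse, GSD408, is hyperoxia by its title and room air by its treatment field. It was analysed as hyperoxia, as its table column is named. KO libraries also differed from WT libraries in tissue markers. Hippocampal field genes summed to 1010 to 1270 CPM (counts scaled to a common library size) in WT-RA and 1220 to 1450 in WT-O2. In KO they summed to 1750 to 2140, with 10 of 14 called higher than in WT. Striatal genes summed to 412 to 953 CPM in WT and 163 to 271 in KO, with 10 of 10 lower, and 7 of 9 thalamic and 6 of 6 oligodendrocyte genes were also lower. Thalamic sums varied widely in WT-RA (160 to 985 CPM) and overlapped KO-RA (195 to 230). In hyperoxia they did not overlap (WT-O2 337 to 761, KO-O2 216 to 227). Oligodendrocyte sums were 7680 to 19200 CPM in WT-RA and 3300 to 5320 in KO-RA, and overlapped in hyperoxia (WT-O2 4810 to 12800, KO-O2 3270 to 5760). Of all 80 marker genes of 11 lists, none was called in hyperoxia except Calb1 (calbindin, of dentate granule cells), higher in WT-O2. In bulk tissue, fewer cells of a type and less RNA per cell cannot be told apart.

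Fos and Fosb mRNA were lower in hyperoxia in both genotypes. Fos (ENSMUSG00000021250), the founding Fos protein, was at 17.2, 19.5, 17.2 and 14.8 CPM in the 4 WT-RA mice and at 6.34, 8.60, 7.79 and 9.57 CPM in the 4 WT-O2 mice. In the KO mice it was at 12.8, 11.4 and 10.2 CPM in room air and at 4.90, 4.59 and 5.25 CPM in hyperoxia. The groups did not overlap, and the order of the means was WT-RA (17.2 ± 1.9, SD), KO-RA (11.5 ± 1.3), WT-O2 (8.08 ± 1.37) and KO-O2 (4.91 ± 0.333), with no overlap between any neighbours in that order. The log2 difference between hyperoxia and room air was -1.09 (SE 0.12) in WT and -1.22 (SE 0.15) in KO, or 2.13-fold and 2.33-fold lower. The KO difference minus the WT difference was -0.13 on the log2 scale (SE 0.19, 95% interval -0.54 to 0.28).

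Fosb (ENSMUSG00000003545), whose truncated splice form ΔFosB builds up after repeated activity, was the least abundant of the 6. It was at 5.82, 6.41, 6.40 and 6.31 CPM in WT-RA and at 2.82, 3.94, 2.90 and 3.68 CPM in WT-O2. In KO-RA it was at 6.09, 5.0 and 4.41 CPM, and in KO-O2 at 2.58, 2.90 and 3.0 CPM. Room air and hyperoxia did not overlap in either genotype. The ranges of the genotypes did overlap within room air and within hyperoxia. The log2 difference was -0.90 (SE 0.13) in WT and -0.87 (SE 0.16) in KO, and the 2 differences were 0.03 apart (SE 0.21). The table holds 1 value per gene, so ΔFosB cannot be separated from full-length FosB.

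Fosl2 (ENSMUSG00000029135), also called Fra-2, did not follow Fos and Fosb. It was at 28.9, 33.2, 27.1 and 30.0 CPM in WT-RA and at 48.1, 33.9, 37.0 and 29.7 CPM in WT-O2, so that the WT groups overlapped and WT-O2 held the widest spread (37.2 ± 7.85, SD). In KO-RA it was at 47.6, 52.3 and 58.2 CPM, the highest group, and in KO-O2 at 39.9, 40.5 and 34.8 CPM, with no overlap between them. The log2 difference between hyperoxia and room air was 0.32 (SE 0.12) in WT and -0.46 (SE 0.14) in KO. The KO difference minus the WT difference was -0.78 (SE 0.18, 95% interval -1.17 to -0.38), the only one of the 6 members whose interval did not include 0. This interval is a description, because the members were chosen on the values it is built from. No gene of the 16637 was called in this interaction, by edgeR (673 at an unadjusted p under 0.05) or by DESeq2 (652). Fosl1 had 0 to 5 estimated counts in every library and was not tested.

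**Figure D1:**
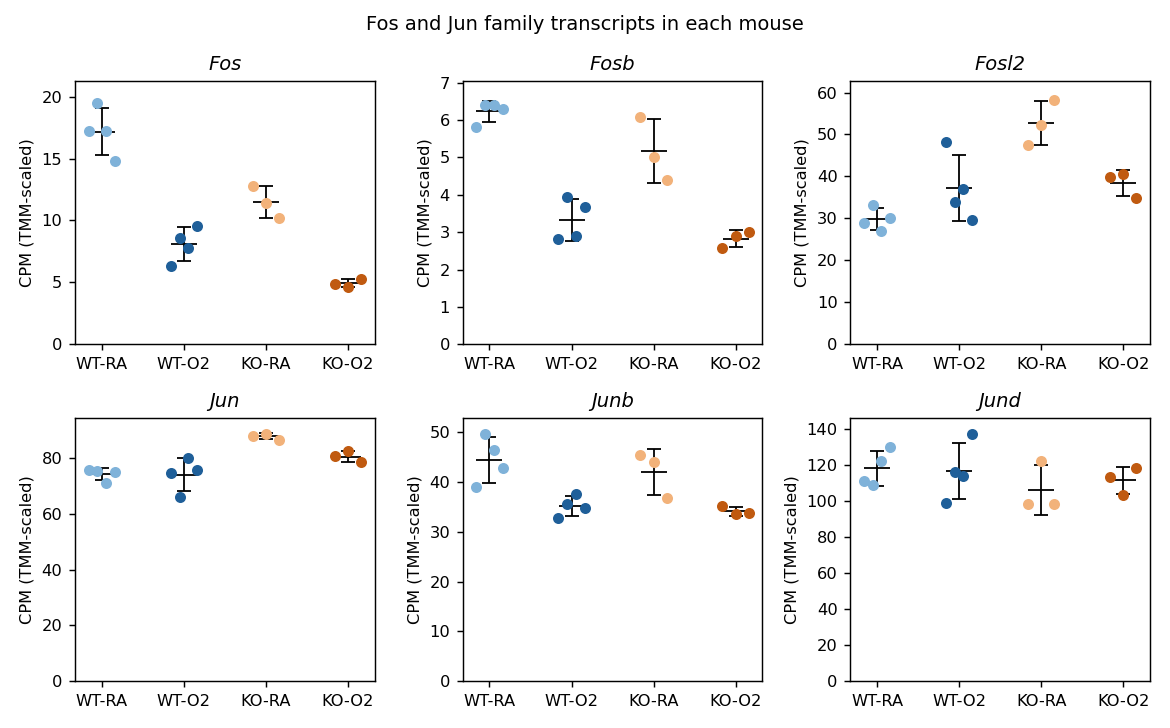
Level of each member in CPM (counts scaled to a common library size by TMM, linear axes from 0) in each of the 14 mice by group, each point 1 mouse, with the group mean and SD in black. Fos and Fosb are lower in hyperoxia in both genotypes, Fosl2 is highest in KO-RA (47.6 to 58.2 CPM), and Jund overlaps across all groups.

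The Jun members differed less between exposures than Fos and Fosb. Jun (ENSMUSG00000052684), the partner of Fos in the classical AP-1 dimer, was at 75.8, 75.3, 71.0 and 75.1 CPM in WT-RA and at 74.6, 66.1, 80.2 and 75.7 CPM in WT-O2. In KO-RA it was at 88.1, 88.8 and 86.7 CPM and in KO-O2 at 80.7, 82.6 and 78.6 CPM. All 3 KO-RA mice were above every other mouse of the study, and the WT groups overlapped. The log2 difference between hyperoxia and room air was -0.003 (SE 0.06) in WT and -0.12 (SE 0.06) in KO.

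Junb (ENSMUSG00000052837), the Jun member induced together with Fos, was at 39.0, 49.6, 46.5 and 42.9 CPM in WT-RA and at 32.8, 35.6, 37.6 and 34.8 CPM in WT-O2. In KO-RA it was at 45.4, 44.0 and 36.8 CPM and in KO-O2 at 35.2, 33.5 and 33.7 CPM. Hyperoxia values lay below room air values in both genotypes. The differences were smaller than for Fos and Fosb, at -0.34 (SE 0.08) in WT and -0.30 (SE 0.09) in KO on the log2 scale. Junb shares 351 bases with Prdx2 on the opposite strand, and with strandedness not given in the sources used here, reads there cannot be told apart.

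Jund (ENSMUSG00000071076), the steady Jun member, was at 111, 109, 122 and 130 CPM in WT-RA and at 99.1, 116, 114 and 137 CPM in WT-O2. In KO-RA it was at 98.1, 122 and 98.1 CPM and in KO-O2 at 113, 103 and 118 CPM. All 4 groups overlapped, and the log2 difference between hyperoxia and room air was -0.02 (95% interval -0.23 to 0.19) in WT and 0.07 (-0.17 to 0.31) in KO. Jun and Jund likewise overlap opposite-strand genes, Junos by 689 bases and Gm11175 by 919, neither with a row in the table.

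At the call rule used for all genes (a log2 difference of at least 0.32 in size, p under 0.05, q under 0.1), Fos and Fosb were called lower by edgeR in WT-O2, among 49 genes (0.295% of those tested), and no member was called higher, among 58 (0.349%). In KO the 1 gene called lower of all genes by edgeR was Fos (0.00601%), and 1 gene that is not a member was called higher (0.00601%). In the interaction 0 were called (0%). Of the 16637 genes, DESeq2 called 137 lower in WT, Fos, Fosb and Junb among them, and 7 lower in KO, Fos and Fosb among them. Room air and hyperoxia did not overlap in WT for 3 members, Fos, Fosb and Junb, against 5.99% of all genes. In KO they did not overlap for 5 members, all but Jund, against 11.8% of all genes with 3 mice against 3. Nothing is read from these counts, since the choice of the family used the same differences. With GSD408 counted as room air, no member was called in WT or KO, and Fos differed by -1.05 (SE 0.19) in WT, Fosb by -0.83 (SE 0.19), Junb by -0.27 (SE 0.10) and Fosl2 by 0.41 (SE 0.11).

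**Figure D2:**
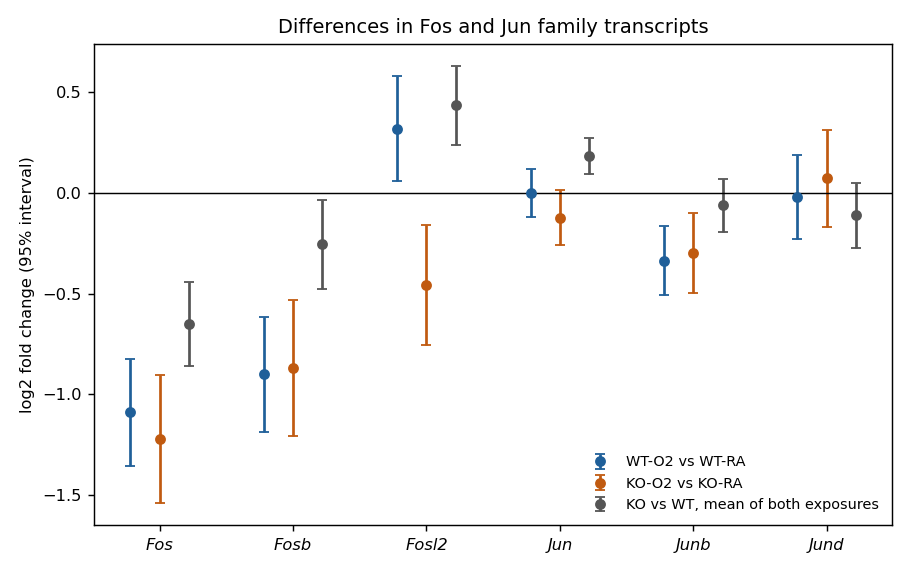
Log2 fold change of each member with its 95% interval (y axis) for hyperoxia in WT, hyperoxia in KO, and KO against WT averaged over both exposures. The hyperoxia values are a description. In the tested genotype difference Fos lies at -0.65 and Fosl2 at 0.43.

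Between genotypes, averaged over both exposures, Fos mRNA was lower and Fosl2 mRNA higher in KO. Fos fell by 0.65 on the log2 scale (SE 0.10, 1.57-fold lower, edgeR q = 0.000326). Here and below q is the p of edgeR's quasi-likelihood F-test after Benjamini-Hochberg correction over the 16637 genes. All 3 KO mice were below all WT mice within room air and again within hyperoxia. Fosl2 was 1.35-fold higher in KO (log2 0.43, SE 0.09, edgeR q = 0.00392). By exposure, given as a description, KO-RA lay 0.82 (SE 0.13) above WT-RA, without overlap, and KO-O2 lay 0.05 (SE 0.13) from WT-O2, with overlap. Jun was 1.13-fold higher in KO (log2 0.18, SE 0.04, edgeR q = 0.00752), which passed the test and not the fold threshold. Fosb (log2 -0.26, SE 0.10, edgeR q = 0.106), Junb (-0.06, SE 0.06, q = 0.555) and Jund (-0.11, SE 0.08, q = 0.358) did not pass it, with 95% intervals of -0.48 to -0.03, -0.19 to 0.07 and -0.27 to 0.05. Without the first KO-RA mouse, Fosb was called (-0.32, edgeR q = 0.0522). Its q was also under 0.1, with a difference below the fold threshold, with library size alone as the scaling and without the first or the third WT-O2 mouse.

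These 2 calls stand against many: 683 genes (4.11%) were called higher in KO and 1321 (7.94%) lower. Within room air, KO and WT did not overlap for Fos, Fosl2 and Jun (19.6% of all genes), and within hyperoxia for Fos (19% of all genes). The genotype also moved with the regional markers given above, and the KO mice carry later animal numbers than the WT mice, so genotype and that numbering cannot be told apart. The striatal and thalamic marker scores together accounted for 0.906 of the variance of genotype (R2). With both scores in the model, Fos differed by -0.29 (SE 0.34, edgeR q = 0.896), Fosl2 by 0.02 (SE 0.28, edgeR q = 0.996), and 7 genes of all tested were called instead of 2004. The part of regional tissue content in the 2 calls was not tested beyond this model.

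Compared per kilobase of exon, Jund was the most abundant member, at 68.1 CPM per kb averaged over all libraries, or 57.2% of the summed family. Jun followed at 24.6 (20.7%) and Junb at 17.0 (14.3%). The Fos members were far lower: Fos at 4.56 (3.83%), Fosl2 at 3.99 (3.35%) and Fosb at 0.712 (0.599%). Summed over Fos, Fosb and Fosl2, the Fos family level was 11.4 ± 0.976 CPM per kb (SD, n = 4) in WT-RA and 7.81 ± 0.217 in WT-O2. In the KO groups of 3 mice it was 11.1 ± 0.157 in room air and 6.51 ± 0.172 in hyperoxia. The summed Jun family level was 114 ± 5.75, 108 ± 9.98, 109 ± 9.42 and 107 ± 4.16 CPM per kb in the same order. The make-up of the Fos side differed between groups: Fos held 5.85% of the family in WT-RA and Fosl2 2.47%, whereas in KO-RA they held 4.04% and 4.51%, in WT-O2 2.95% and 3.30%, and in KO-O2 1.84% and 3.49%. Lengths came from the exon union of each gene in GENCODE M21, so these levels rest on that annotation.

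Across mice of the same group, after subtracting each group's mean log2 CPM, Fos and Fosb varied together (Pearson r = 0.70 over the 14 libraries). Junb varied with both (0.53 with Fos, 0.43 with Fosb). Fosl2 varied the opposite way, at -0.74 with Fos, -0.71 with Fosb and -0.68 with Jund. Leaving out each mouse in turn, r of Fos and Fosl2 ranged from -0.96 (without the second WT-RA mouse) to -0.50 (without the first WT-O2 mouse), and was -0.64 without GSD408, whose exposure is in doubt. Over the same left-out mice Fos with Fosb ranged from 0.60 to 0.79, Fosb with Fosl2 from -0.77 to -0.62, Fosl2 with Jund from -0.81 to -0.50, Fos with Junb from 0.43 to 0.66 and Fosb with Junb from 0.21 to 0.61. Over the 15 pairs the median was 0.05 and 8 were positive. These values are a description, since the genes share libraries, scaling and small groups.

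**Figure D3:**
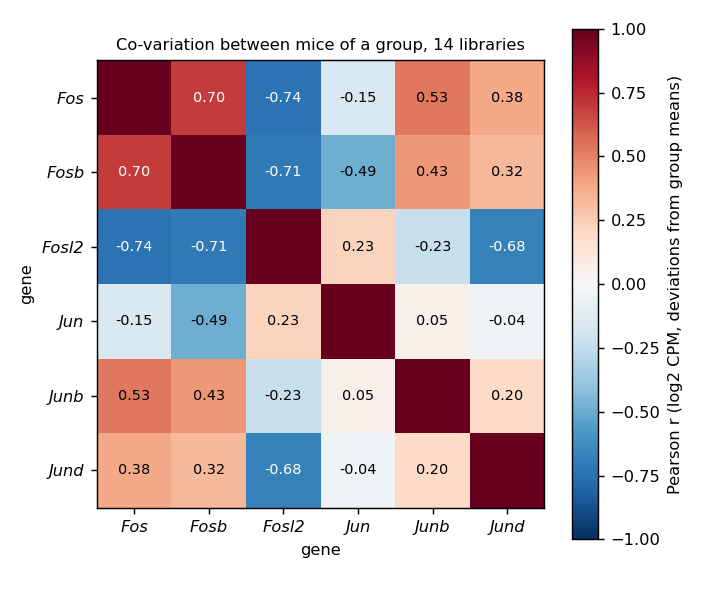
Pearson correlation of log2 CPM deviations from group means between the 6 members over the 14 libraries (rows and columns are genes, and color gives r). Fos, Fosb and Junb are positive with each other (0.43 to 0.70), and Fosl2 is negative with Fos (-0.74), Fosb (-0.71) and Jund (-0.68).

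Of 14461 genes with a mean of at least 1 CPM, those most like Fos in log2 CPM over the 14 libraries were Kcnj2 (r = 0.92), Grrp1 (0.90), Tlnrd1 (0.90), Cbx8 (0.89) and Synj2 (0.88). By deviations from group means, the nearest genes were Prr12 (0.91), Cnnm2 (0.90) and Hk2 (0.87) for Fos, Commd4 (0.84) for Fosb, Zfp961 (0.90) for Fosl2, Fam222b (0.93) for Jun, Tex2 (0.89) for Junb and Pcsk1n (0.94) for Jund. No member was among the others' nearest, because members were left out of this search. These too are descriptions, over libraries that share 4 groups.

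Of 76 tested genes in 5 lists of partners, upstream regulators and targets, 1 was called in hyperoxia in WT and 0 in KO. Of all genes, 0.295% were called lower and 0.349% higher in WT, and 0.00601% each way in KO. These lists were chosen with earlier results of these data known, so their hyperoxia values are a description. Of 12 tested genes for other AP-1 and basic leucine zipper partners, Maff, a small Maf protein without an activation domain, was called in WT. It rose from 1.4 ± 0.228 CPM (SD, n = 4) to 3.26 ± 1.10 (log2 1.22, SE 0.23, edgeR q = 0.0574). In KO it was at 1.55 ± 0.171 and 2.75 ± 0.602 CPM (SD, n = 3, log2 0.82, SE 0.27, edgeR q = 0.861). The Maff call was lost with GSD408 counted as room air (log2 0.43, edgeR q = 0.751), in a fit of the WT groups alone (edgeR q = 0.157), without the second WT-O2 mouse (edgeR q = 0.2) and without the second WT-RA mouse (edgeR q = 0.136). Atf3, a stress-induced partner of Jun, was at 0.447 and 0.919 CPM in WT-RA and WT-O2 and did not pass (log2 1.03, SE 0.41, edgeR q = 0.32).

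None of the 23 tested upstream kinases (ERK, JNK, p38, RSK, MSK and calmodulin kinases), none of 16 transcription factors and coactivators that act on Fos and Jun genes, and none of 11 genes for decay of AP-1 mRNA or protein was called in hyperoxia in either genotype by edgeR or DESeq2. At an unadjusted p under 0.05, edgeR counted 4, 1 and 4 of them in WT and 0, 1 and 0 in KO. Of all 16637 genes, edgeR counted 2027 in WT and 809 in KO at that p. Their median log2 differences in WT were -0.01, -0.03 and -0.04, beside -0.01 over all genes. Srf and Creb1, which act at the Fos promoter, differed in WT by -0.14 (SE 0.07) and -0.04 (SE 0.07). Of 14 tested genes with textbook AP-1 regulation, none was called in either genotype by edgeR (3 in WT and 1 in KO at an unadjusted p under 0.05). DESeq2 called 1 lower, Plau (urokinase), and 1 higher in WT, beside 137 lower and 173 higher of all 16637 genes.

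The list of other immediate early genes was chosen with earlier results of these data known, so its hyperoxia counts and q values are a description. Of its 16 genes tested in WT, 4 were called lower and 0 higher, beside 0.295% and 0.349% of all genes. Of the 16, 12 had a negative difference, and the median was -0.40 beside -0.01 over all genes. DESeq2 called 8 lower and 1 higher, beside 137 lower and 173 higher of all 16637 genes. Arc, which acts in synaptic AMPA receptor removal, fell from 97.7 ± 16.7 to 43.2 ± 6.85 CPM (log2 -1.18, SE 0.15, edgeR q = 0.00593). Npas4 fell from 21.5 ± 3.83 to 9.19 ± 2.79 CPM (log2 -1.22, SE 0.22, edgeR q = 0.0413), Egr1 by 0.85 (SE 0.14, edgeR q = 0.0248) and Ier5 by 0.60 (SE 0.14, edgeR q = 0.0878) on the log2 scale. All 4 calls were lost with GSD408 counted as room air (edgeR q of 0.171 for Arc, 0.294 for Egr1, 0.34 for Npas4 and 0.365 for Ier5). Npas4 was also lost without the first WT-O2 mouse (q = 0.119) or the second WT-RA mouse (q = 0.111), and Ier5 when any of 11 of the 14 mice was left out. In KO none of the 16 was called by edgeR, with 4 at an unadjusted p under 0.05 beside 809 of all 16637 genes. Arc alone was called lower by DESeq2 in KO, among 7 of all genes, and the median was -0.15. Arc differed there by -0.96 (SE 0.17, edgeR q = 0.186), Egr2 by -1.02 (SE 0.31, q = 0.861), Npas4 by -0.52 (SE 0.25, q = 0.997) and Ier5 by -0.01 (SE 0.16, q = 0.949). In the interaction test no gene was called.

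Between genotypes, 6 of the 76 genes of the 5 lists were called (7.89%), beside 2004 of all genes (12%). Of the kinases, Camk2a, the calmodulin kinase of excitatory neurons, was higher in KO (log2 0.61, SE 0.07, edgeR q = 6.42e-05), and Mapk3, which encodes ERK1, and Rps6ka2 were lower (-0.41 and -0.45, with q = 5.24e-05 and 7.93e-05). Of the transcription factors, Mef2c was lower (log2 -1.39, SE 0.20, edgeR q = 0.000254), and it stayed called with the regional scores in the model (-2.11, SE 0.20, edgeR q = 0.000655). Of the AP-1 responsive genes, the opioid peptide precursors Penk and Pdyn were lower (-2.93 and -0.80, with q = 2.23e-06 and 8.37e-05). Penk also stands in the striatal list, whose 10 members were all lower in KO. With the regional scores in the model the calls of Camk2a, Mapk3, Rps6ka2, Penk and Pdyn were lost. There Camk2a differed by 0.06 (SE 0.21), Mapk3 by -0.31 (SE 0.17), Rps6ka2 by -0.27 (SE 0.18) and Pdyn by -0.52 (SE 0.34). Penk is itself part of the striatal score, so nothing is read from the loss of its call.

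Of the 16 other immediate early genes, 5 were lower in KO: Dusp1 (log2 -0.57, edgeR q = 0.000748), Ccn1 (-0.65, q = 0.0155), Npas4 (-0.65, q = 0.0135), Egr1 (-0.34, q = 0.0325) and Egr2 (-0.57, q = 0.0659). The 2 others called, Nr4a3 (log2 0.58, edgeR q = 0.00132) and Egr3 (0.37, q = 0.00277), were higher. Of all genes, 7.94% were called lower and 4.11% higher, and this list was chosen with earlier results of these data known. The median of all 16 was -0.16, beside -0.01 over all genes. None of the 7 was called with the regional scores in the model, where Ccn1 (0.77), Nr4a3 (-0.25) and Egr3 (-0.25) turned direction. Leaving out single mice ended the call of Egr1 in 5 cases, of Egr2 in 6 and of Egr3 in 1, the first KO-RA mouse (0.32). With GSD408 counted as room air the calls of Npas4 (edgeR q = 0.117), Egr1 (q = 0.253) and Egr2 (q = 0.165) were lost.

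**Figure D4:**
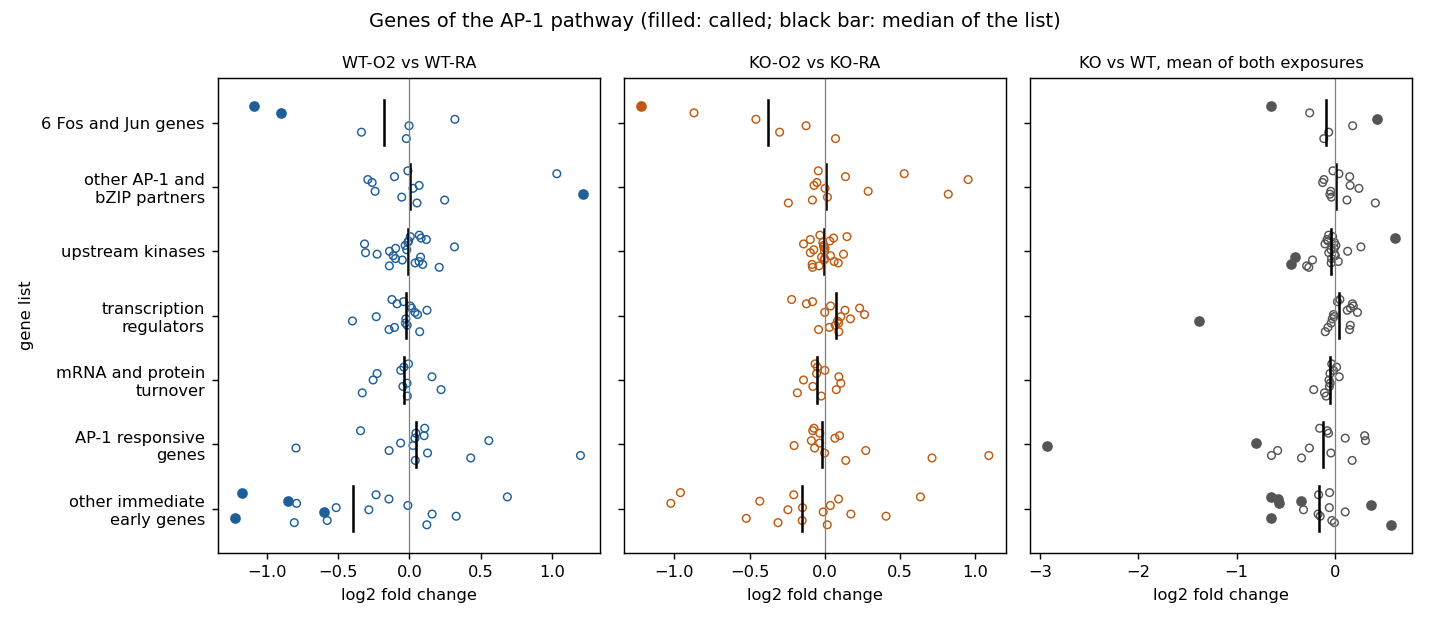
Log2 fold change (x axis) of each tested gene of 7 lists (rows) for hyperoxia in WT (left), hyperoxia in KO (middle) and KO against WT averaged over exposure (right). Filled points are called and black bars are list medians. The other immediate early genes hold 4 called genes in WT, all lower, and none in KO.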

How the data were processed

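Hippocampal poly(A) RNA was sequenced from 14 mice. Per the study's methods and the labels, the authors aligned reads to GRCm39 with Kallisto, summed transcripts to genes, and deposited estimated counts per gene, of which 41.0 to 43.2% in each library were not whole. The estimated counts were rounded. Genes passing edgeR's filterByExpr (16637 of 36118) were scaled by TMM and fitted with 1 coefficient per group (edgeR 4.0.16, R 4.3.3, quasi-likelihood F-test, p-values corrected by Benjamini-Hochberg over the 16637 genes). Calls required a 1.25-fold difference or more with p under 0.05 and q under 0.1, the study's thresholds. The study's own tool, DESeq2 (1.42.0), was an alternative. CPM values use TMM-scaled library sizes, and log2 CPM a prior count of 2. The fits were also run on counts simulated from the fitted means and spread, with known changes and no regional differences between mice. The outcome is not given here, and no result above rests on it.

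The genotype contrast is the mean of the KO groups against the mean of the WT groups. The number of mice is equal between exposures within each genotype. Its size is therefore independent of the hyperoxia differences used in choosing the members, if the spread between mice is also equal. For Fosl2 the SD was 2.55 CPM in WT-RA and 7.85 CPM in WT-O2. The genotype test shares with the hyperoxia differences the estimate of spread between mice. Members, marker lists and pathway lists were chosen with earlier results of these data known. Named genes are the members, Gsdmd, the called genes of the fixed lists with up to 4 examples a list, and the genes most correlated with a member; Calb1 was named after its value was seen. Likeness was searched among genes with a mean of at least 1 CPM. Of the listed genes, Fosl1, Batf, Batf2, Mmp3, Mmp13 and Il6 did not pass the filter on low counts, and Rps6ka4 had no row by that symbol. The labels call each library a separate mouse; litters are not given, so p-values measure the spread between these mice. Fos rested on 125 to 553 estimated counts a library and Fosb on 72 to 182, the fewest of the members. Promoters and starts are from RefSeq (GRCm38.p6), exon lengths from GENCODE M21, both matched by symbol for all 6 members. Alternatives were other scalings and filters, DESeq2, fits of the compared groups alone, GSD408 as room air, and leaving out each mouse. Regional marker scores as covariates were a further alternative, for the genotype comparisons only. The values of 1 gene of the AP-1 responsive list are not reported here.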

Additional observations from a re-analysis of the deposited data

Results flagged for a closer look

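Of 12 sets of 4 WT mice, 1 for each member and exposure, 2 held a mouse whose gap to the nearest other was large for the range of its group. Fosb in the first WT-RA mouse was low at 5.82 CPM, with the other 3 mice between 6.31 and 6.41 CPM. Jun in the third WT-RA mouse was low at 71.0 CPM, with the other 3 between 75.1 and 75.8 CPM. Chance flags about 1 in 20 such sets.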

How the results depend on the processing

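No paired analysis was possible because the labels give no replicate numbers shared between groups. The regional scores were used in the genotype comparisons only, so the hyperoxia differences were not recomputed with them. Under the other alternatives, the hyperoxia differences of Fos, Fosb, Fosl2 and Junb kept their direction in both genotypes. Fos ranged from -1.18 to -0.99 in WT and -1.30 to -1.14 in KO, and Fosb from -0.99 to -0.83 and -0.97 to -0.74. Fosl2 ranged from 0.17 to 0.42 and -0.53 to -0.38, and Junb from -0.39 to -0.27 and -0.39 to -0.24. Between genotypes, Fos ranged from -0.70 to -0.29 and Fosl2 from 0.02 to 0.51, and both lost their call under the striatal and thalamic scores alone. Those scores reversed Jund (0.20), Ccn1 (0.77), Egr3 (-0.25) and Nr4a3 (-0.25) and, with genotype and scores so closely tied, the cause was not tested. Numbers of called genes moved more. In WT hyperoxia, 107 became 310 with DESeq2, 20 with only the compared groups and 6 with GSD408 as room air, and 13 to 272 when 1 mouse was left out: 33, 13 and 59 without WT-O2 replicates 1, 2 and 3 in turn, 64 without the second KO-RA mouse, and 272, 22 and 177 when WT-RA replicates 1, 2 and 4 were left out in turn. In KO hyperoxia, 2 became 13 with DESeq2, 6 without the filter, 4 with only the compared groups, 0 with GSD408 as room air (edgeR, 725 at an unadjusted p under 0.05), and 1 to 4 when 1 mouse was left out. Between genotypes, 2004 became 7 with the regional scores and 1810 to 2118 without 1 mouse. Within room air 1738 became 3 with the scores and 1076 to 1929 without 1 mouse, and within hyperoxia 1142 became 1 and 675 to 1335. The interaction held 0 called genes by edgeR and DESeq2 in every alternative. Of 1156 values under alternatives, for single genes and for the median correlation of the members, 1093 were counted as unchanged. For tested differences, unchanged meant the same direction and the same call. For the other differences of the members it meant a shift smaller than the SD between mice of a group, whatever the call. For the median correlation it meant a shift smaller than the SD over the pairs. Of the members, Fosb rested on the fewest counts. Correlations between named pairs were recomputed without each mouse after the data were seen, and none changed sign.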

Other observations

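Of the blood genes, which sum alpha and beta globins with Alas2, the level was 279 to 343 CPM in WT-RA and 180 to 247 CPM in WT-O2, without overlap, whereas KO-RA (231 to 411 CPM) and KO-O2 (163 to 425 CPM) overlapped, and none of the 5 genes was called in either genotype. Heat shock genes, which respond to handling and RNA quality, summed to 1090 to 1220 CPM in WT-RA and 1100 to 1180 CPM in WT-O2, and to 1240 to 1310 CPM in KO-RA and 1140 to 1150 CPM in KO-O2. KO-RA, where Fosl2 and Jun were highest, thus also held the highest heat shock level, and its part in those levels was not tested. Of the 5 heat shock genes, 2 were called higher in KO averaged over both exposures, beside 4.11% of all genes. Choroid plexus genes ranged from 37.1 to 3280 CPM among the 3 KO-RA mice and from 107 to 3410 CPM among the 3 KO-O2 mice. Neuronal genes summed to 4570 to 5640 CPM over all mice, with WT-O2 (4570 to 4830 CPM) below KO-O2 (4980 to 5160 CPM). Microglial genes summed to 320 to 381 CPM, with WT-RA (323 to 340 CPM) below KO-RA (344 to 363 CPM), and endothelial genes to 145 to 210 CPM, and none of those genes was called in hyperoxia or between genotypes. Astrocyte genes summed to 1250 to 1500 CPM in WT-RA and 1490 to 1580 CPM in WT-O2. In KO they summed to 1680 to 1890 CPM, with 2 of 6 called higher than in WT.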
